A study of Mus musculus with 6 samples.

Results

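Neurotrophins and their receptors were followed in mouse hippocampus through 6 genes: the ligands Bdnf and Ntf3, the receptor tyrosine kinases Ntrk2 and Ntrk3, the p75 receptor gene Ngfr, and Sort1, which encodes sortilin. They were chosen by name, as the rows of the gene table that carry these symbols, and all 6 were found among 15639 rows. The tissue came from mice 6 months old, with 3 libraries labelled APP/PS1, a transgenic genotype described as expressing APP695swe and PS1-dE9, and 3 libraries labelled wild type (WT). The labels give no promoter for the transgene, no strain, sex or litter, and no number of animals per library, so a p-value here measures only the spread between libraries, which may be technical. Levels are FPKM, fragment counts scaled to transcript length and library total, and can therefore be set side by side between genes as well as between libraries. Library totals lay between 182355 and 185217 FPKM. Depth is unknown.

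Neurotrophins are small secreted proteins that support the survival, growth and synaptic plasticity of neurons. They are made as precursors and cut to a mature form. The mature form of BDNF signals through TrkB (Ntrk2) and that of neurotrophin-3 mainly through TrkC (Ntrk3), whereas precursors bind p75 together with sortilin, a pairing known for promoting cell death and synaptic weakening. In the hippocampus BDNF is made mainly by excitatory neurons, among them the dentate granule cells whose mossy fibres store it, and its transcription follows neuronal activity.

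The labels were checked first, since 2 libraries went against them. App, the gene of the amyloid precursor protein, stood at 153, 71.0 and 166 FPKM in APP/PS1 replicates 1 to 3, against 69.8, 68.5 and 146 FPKM in WT replicates 1 to 3. Prnp, which encodes the prion protein, divided them likewise, with 472, 199 and 464 FPKM against 188, 181 and 457 FPKM. The library labelled APP/PS1 replicate 2 thus had the low App level, and the library labelled WT replicate 3 the high one. Directions below follow the labels and are also given without these libraries where they bear on a result. Markers of the expected neurons were present: Neurod6, of pyramidal neurons, averaged 53.6 ± 1.06 FPKM in the libraries labelled APP/PS1 and 53.6 ± 1.08 FPKM in those labelled WT, and Prox1, of dentate granule neurons, 13.5 ± 0.755 and 16.6 ± 2.97 FPKM (SD, n = 3 each, as throughout).

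Bdnf was the member with the widest separation between labels. Its values were 4.74, 4.06 and 4.70 FPKM in the libraries labelled APP/PS1, against 5.79, 5.99 and 6.31 FPKM in those labelled WT. The 2 sets of libraries did not overlap, and the lowest WT value lay above the highest APP/PS1 value. The mean was 4.50 ± 0.380 FPKM in APP/PS1 and 6.03 ± 0.260 FPKM in WT, a ratio of 0.746. On the log2(FPKM + 1) scale, which understates the change of low genes, the fold change was -0.36 (SE 0.0743, 95% interval -0.53 to -0.18). By limma the adjusted p was 0.405 over the 13700 genes tested, so Bdnf did not pass the threshold of 0.05. Its unadjusted limma p of 0.00177 placed it 59th by smallest p. Of all genes tested, 0.0219% passed the adjusted threshold, 3.83% had an unadjusted p under 0.05 on the lower side, and in 6.51% the APP/PS1 libraries lay below all WT libraries.

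The libraries that went against their labels by App did not do so by Bdnf. The library labelled APP/PS1 replicate 2, with low App, had the lowest Bdnf of all 6, and the library labelled WT replicate 3, with high App, had the highest. Without both, the log2 fold change was -0.27 (limma, unadjusted p = 0.0139, adjusted p = 0.466). Grouped by App level in place of label, Bdnf was 4.74, 4.70 and 6.31 FPKM in the high-App libraries. It was 4.06, 5.79 and 5.99 FPKM in the low-App libraries, so groups formed by App overlapped. Over all 6 libraries Bdnf therefore separated by label and not by App level. In the 4 libraries whose App follows the label, these groupings are the same. Some other measures separated by label alongside Bdnf, and some did not. Dentate granule markers, 7 of 7 listed in the table, summed to between 54.5 and 61.3 FPKM in the libraries labelled APP/PS1 and between 66.6 and 84.5 FPKM in those labelled WT. Taken singly, 3 of the 7 did not overlap between labels, beside 6.51% of all genes tested on the lower side. Of the 6 tested, 1 had an unadjusted limma p under 0.05. None of the 7 was at 0 on average, the lowest being Tdo2 at 0.706 ± 0.368 and 0.786 ± 0.0964 FPKM. The share of FPKM from the 13 mitochondrially encoded genes was 10.3%, 9.70% and 11.3% in the APP/PS1 libraries, against 9.30%, 8.87% and 9.31% in the WT libraries. Choroid plexus and oligodendrocyte markers, 7 of 7 listed for each, overlapped between labels in summed FPKM (1119 to 1395 against 861 to 1207, and 359 to 434.5 against 297 to 380). Their mean deviation on the log2 scale did not overlap, but only narrowly. For choroid plexus it was 0.030 to 0.22 in APP/PS1 against -0.30 to 0.023 in WT. For oligodendrocytes it was -0.0015 to 0.24 against -0.26 to -0.0031. Taken singly, all 7 of each list were higher in APP/PS1, beside 6794 of the 13700 genes tested. An unadjusted limma p under 0.05 was found for 3 choroid plexus and 4 oligodendrocyte markers, beside 2.85% of all genes on the higher side. Labels did not overlap in 3 and 2 of them, beside 5.38% of all genes tested on that side. Pyramidal neuron markers, 7 of 7 listed, overlapped between labels by both measures. Their sums were 161 to 174 FPKM in APP/PS1 and 158 to 181 FPKM in WT. Their mean deviations were -0.07 to 0.06 and -0.08 to 0.13. The part of any of these measures in the Bdnf difference was not tested. In bulk tissue fewer Bdnf-producing cells cannot be told apart from less Bdnf RNA per cell.

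**Figure D1:**
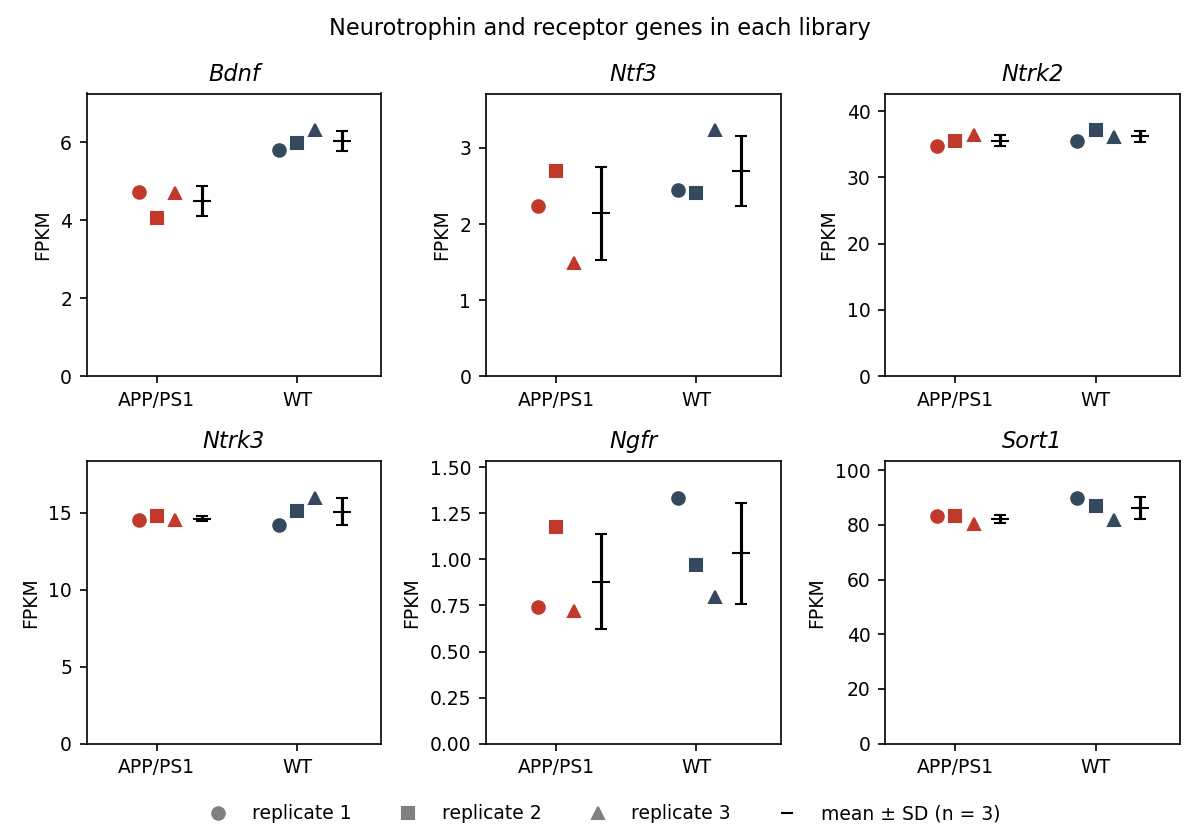
FPKM of the 6 genes in each library, APP/PS1 left and WT right, with symbols for replicates and a bar for the mean ± SD (n = 3), on axes that start at 0. For Bdnf the APP/PS1 points, 4.06 to 4.74 FPKM, all lie below the WT points, 5.79 to 6.31 FPKM, and in the other 5 panels the labels overlap.

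A single Bdnf value pools several kinds of transcript. Transcription of Bdnf begins at several separate promoters, each giving its own first exon joined to a shared coding exon, and the gene-level FPKM does not say which was used. The RefSeq promoter table (GRCm38.p6) lists 7 Bdnf starts on the plus strand of chromosome 2. The 60 bases that end just before each start are shown because they are the alternative entry points behind the pooled value. They lie at chr2:109674640-109674699 for start 1, chr2:109676972-109677031 for start 2, chr2:109692376-109692435 for start 3, chr2:109692967-109693026 for start 4, chr2:109694349-109694408 for start 5, chr2:109709323-109709382 for start 6, chr2:109722861-109722920 for start 7. Capitals mark the motifs TCACGTCA and GGGCGG (or its reverse, CCGCCC).
Bdnf start 1: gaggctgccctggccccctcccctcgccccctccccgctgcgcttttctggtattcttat
Bdnf start 2: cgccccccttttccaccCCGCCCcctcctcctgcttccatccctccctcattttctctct
Bdnf start 3: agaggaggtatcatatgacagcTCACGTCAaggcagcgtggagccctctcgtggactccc
Bdnf start 4: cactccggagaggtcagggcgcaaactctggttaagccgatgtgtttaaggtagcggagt
Bdnf start 5: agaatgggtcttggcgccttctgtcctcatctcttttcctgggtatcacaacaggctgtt
Bdnf start 6: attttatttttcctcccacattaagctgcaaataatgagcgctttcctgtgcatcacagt
Bdnf start 7: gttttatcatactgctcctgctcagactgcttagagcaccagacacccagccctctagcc

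Start 3 alone among the 7 held TCACGTCA, beginning 38 bases before the start. This is a variant of TGACGTCA, the cAMP response element that the activity-dependent factor CREB binds, and an element with these letters is known in rat from the activity-regulated Bdnf promoter of exon IV. Searched on both strands over windows of 300 bases (250 before the start and 50 after), TCACGTCA occurred in 0.441% of all 32851 listed promoters. The full TGACGTCA, in 1.79% of all windows, was in 0 of the 7. The shorter TGACG, which lies within both motifs on 1 strand or the other, was in 20.8% of all windows and, among the Bdnf windows, only in that of start 3. The GC box GGGCGG, bound by Sp-family factors, was in 35.7% of all windows and in 2 of the 7, those of starts 2 and 4 (for start 4, farther upstream than the bases shown). The TATA motif TATAAA, in 13.6% of all windows, and the E-box CACGTG, in 7.15%, were in 0 of the 7. These are descriptions of letters, and no binding was measured.

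Ntf3, the gene of neurotrophin-3, which in the hippocampus is known from dentate granule cells, was the lower of the ligands. The values were 2.24, 2.70 and 1.48 FPKM in the libraries labelled APP/PS1, against 2.45, 2.41 and 3.23 FPKM in those labelled WT. The labels overlapped, because APP/PS1 replicate 2 stood above WT replicates 1 and 2. The means were 2.14 ± 0.612 and 2.70 ± 0.463 FPKM, and the log2 fold change of -0.25 did not pass (limma, adjusted p = 0.857, 95% interval -0.62 to 0.13). The value moved with single libraries. It was -0.09 without APP/PS1 replicate 3, the lowest library, -0.15 without WT replicate 3, the highest, and -0.38 without APP/PS1 replicate 2. APP/PS1 replicate 3 and WT replicate 3 were also the extremes of the dentate granule markers, whose mean deviation on the log2 scale was -0.28 and 0.30 there and -0.03 in APP/PS1 replicate 2. Leptomeningeal fibroblast markers, 7 of 7 listed and none at 0, summed to between 26.6 and 36.4 FPKM in APP/PS1 and between 29.9 and 31.8 FPKM in WT. Their mean deviation was -0.34 in APP/PS1 replicate 3, the lowest, 0.17 in APP/PS1 replicate 2 and 0.15 in WT replicate 3, the libraries where Ntf3 was also highest. Mural cell markers, 7 of 7 listed and none at 0, summed to between 54.1 and 69.4 FPKM in APP/PS1 and between 62.0 and 66.1 FPKM in WT, with deviations of -0.16, 0.17 and 0.08 in the same 3 libraries. The part of any of these cells in the spread of Ntf3 was not tested.

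Ntrk2, which encodes TrkB, the receptor of mature BDNF in neurons and astrocytes, was the steadiest member. Its levels were 34.7, 35.5 and 36.4 FPKM in the libraries labelled APP/PS1 and 35.4, 37.1 and 36.0 FPKM in those labelled WT. The coefficient of variation over all 6 libraries was 2.34%, lower than in all but 1.44% of the genes tested, and lower than in all but 4.0% of the 500 tested genes nearest to it in mean level. The log2 fold change was -0.03 (limma, adjusted p = 0.952), and its 95% interval ran from -0.13 to 0.08. Gene-level values pool the kinase form of TrkB with the truncated form that lacks the kinase and predominates in astrocytes, so a shift between forms was not measured here. The 7 astrocyte markers summed to between 402 and 423 FPKM in the APP/PS1 libraries and between 382 and 410 FPKM in the WT libraries, and overlapped between labels as Ntrk2 did.

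Ntrk3, the gene of TrkC, receptor of neurotrophin-3, had 14.5, 14.8 and 14.6 FPKM in the libraries labelled APP/PS1, against 14.2, 15.1 and 16.0 FPKM in those labelled WT. The APP/PS1 libraries lay within the range of the WT libraries. The log2 fold change was -0.04 (limma, adjusted p = 0.936, 95% interval -0.17 to 0.09). A predicted gene, Gm39038, overlaps Ntrk3 in RefSeq and has its own row, and since the strand used in counting is not stated, reads of the pair may not have been told apart.

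Ntrk3 was also the only member with a circular RNA among the 257 circRNAs that the files give by coordinates. Circular RNAs are closed loops made by back-splicing of exons. The circRNA at chr7:78356026-78462942 on the minus strand spans 106917 bases of the genome and lies inside Ntrk3 of the RefSeq table. It had 8, 13 and 8 reads in the libraries labelled APP/PS1, against 1, 10 and 4 reads in those labelled WT, out of 13998 to 19584 circRNA reads per library. The labels overlapped, through the 10 reads of WT replicate 2. Scaled to library totals as CPM, the mean was 513 ± 179 in APP/PS1 and 281 ± 252 in WT, and the log2 fold change was 0.80 (edgeR, adjusted p = 0.831), in a test that called 0.0469% of 2132 circRNAs. The build of these coordinates is not named in the files, and mm9 stands in the submitters' processing notes. Of the 257 circRNAs, 253 lay inside a gene of the GRCm38 table, against 81 and 80 after a shift of 1000000 bases up or down. Gene positions of mm9 were not compared, so these counts alone do not decide between the builds. A further 1989 circRNAs have a database number in place of coordinates, and their hosts were not analysed here.

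The receptor genes of the precursor forms stood at opposite ends of the scale. Ngfr, which encodes p75, had 0.744, 1.17 and 0.721 FPKM in the libraries labelled APP/PS1, against 1.33, 0.969 and 0.794 FPKM in those labelled WT. It reached 1 FPKM in 2 of 6 libraries, short of the 3 required, and so was not tested. The labels overlapped, and the difference of mean log2(FPKM + 1) was -0.11. In adult forebrain p75 is known chiefly from basal forebrain cholinergic neurons, whose axons reach the hippocampus while their cell bodies do not. All 5 cholinergic markers looked for (Chat, Slc18a3, Slc5a7, Isl1 and Lhx8) had no row in the gene table.

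Sort1, the gene of sortilin, a sorting receptor that carries BDNF precursor to the regulated secretory pathway and binds precursors at the surface with p75, was the highest member. It stood at 83.1, 83.1 and 80.4 FPKM in the libraries labelled APP/PS1, against 89.9, 87.0 and 81.9 FPKM in those labelled WT. WT replicates 1 and 2 stood above all APP/PS1 libraries and WT replicate 3 among them. The log2 fold change was -0.07 (limma, adjusted p = 0.874, 95% interval -0.18 to 0.05). Without WT replicate 3, which had high App, and APP/PS1 replicate 2, which had low App, it was -0.11 (limma, adjusted p = 0.602). Grouped by App level in place of label, Sort1 was 83.11, 80.4 and 81.9 FPKM in the high-App libraries. In the low-App libraries it was 83.12, 89.9 and 87.0 FPKM.

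**Figure D2:**
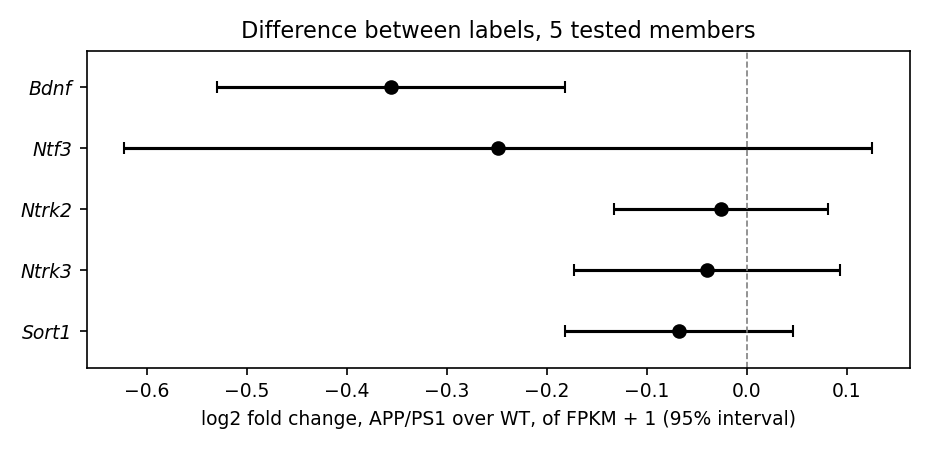
Log2 fold change of FPKM + 1, APP/PS1 over WT, on the horizontal axis for the 5 tested members, with 95% intervals from limma. Bdnf at -0.36 has an interval below 0 (not adjusted for multiple tests), Ntf3 has the widest, and those of Ntrk2, Ntrk3 and Sort1 stay within -0.18 and 0.09.

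The order of levels was the same in all 6 libraries. By the mean over libraries it ran Sort1 at 84.2, Ntrk2 at 35.9, Ntrk3 at 14.9, Bdnf at 5.27, Ntf3 at 2.42 and Ngfr at 0.956 FPKM. Neighbours in this order did not overlap across the 6 libraries, the closest pair being Ntf3, with a lowest value of 1.48 FPKM, and Ngfr, with a highest of 1.33 FPKM. Sort1 lay above 98.6% of the rows of the table, Ntrk2 above 94.8%, Ntrk3 above 83.2%, Bdnf above 55.1%, Ntf3 above 32.7% and Ngfr above 12.2%. Bdnf and Ntf3 varied more than the Trk receptor genes, with coefficients of variation over 6 libraries of 16.9% for Bdnf and 23.7% for Ntf3, against 2.34% for Ntrk2 and 4.21% for Ntrk3. Ngfr, the lowest member, varied most, at 26.3%, and Sort1 varied by 4.16%. The ligand genes are lower than the Trk genes, but among the 500 tested genes nearest in level Bdnf still varied more than 85.4% and Ntf3 more than 90.0%, which includes the difference between labels.

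The receptor gene exceeded its ligand gene in every library, by a margin that differed between labels for BDNF. The ratio of Ntrk2 to Bdnf FPKM was 7.33, 8.73 and 7.75 in the libraries labelled APP/PS1, against 6.12, 6.19 and 5.71 in those labelled WT. The labels did not overlap. The exact two-sided permutation test gave p = 0.1, the smallest that 3 against 3 libraries allow, and 0.5 after Benjamini-Hochberg adjustment over 5 ratios. A ratio within a library does not depend on its scaling. Ntrk2 hardly varied, so the ratio repeats the Bdnf values in another form. The ratio of Ntrk3 to Ntf3 was 6.50, 5.49 and 9.81 in the APP/PS1 libraries, against 5.79, 6.26 and 4.94 in the WT libraries (exact permutation p = 0.4). The other 3 ratios, Bdnf to Ntf3, Ntrk2 to Ntrk3 and Sort1 to Ntrk2, overlapped between labels as well.

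**Figure D3:**
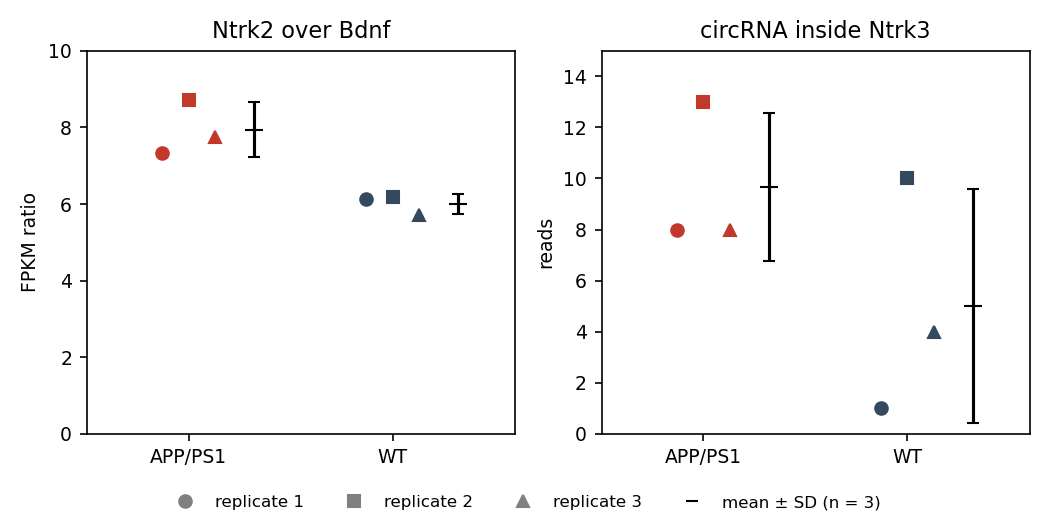
The ratio of Ntrk2 to Bdnf FPKM (left) and reads of the circRNA inside Ntrk3 (right) in each library, APP/PS1 left of WT, with symbols for replicates and bars for the mean ± SD (n = 3). The ratios of 7.33 to 8.73 in APP/PS1 lie above those of 5.71 to 6.19 in WT, whereas the circRNA reads, 8 to 13 and 1 to 10, overlap.

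The genes whose pattern over the 6 libraries lay closest to Bdnf were Hist2h4, Cog8 and Itga7. Likeness was the mean absolute difference between centred log2(FPKM + 1) values, which was 0.0450, 0.0452 and 0.0489, set beside a mean deviation of 0.178 for Bdnf itself. Hist2h4, a histone H4 gene with near-identical copies among which reads may have been split, was lowest in APP/PS1 replicate 2 at 6.65 FPKM and highest in WT replicate 3 at 9.77 FPKM, the same libraries as Bdnf. Cog8, a subunit of a Golgi tethering complex, shared these extremes at 3.64 and 5.45 FPKM. Itga7, a laminin-binding integrin subunit, had 1.66 FPKM in APP/PS1 replicate 2 but peaked in WT replicate 2 at 2.66 FPKM. For Ntf3 the closest were Fam46a, Cped1 and Tagln2, at 0.0493, 0.0526 and 0.0556, set beside a mean deviation of 0.168. All 3 were lowest in APP/PS1 replicate 3, as Ntf3 was, with Tagln2, an actin-binding protein of the transgelin family, at 2.38 FPKM there and 3.94 FPKM in WT replicate 3. With 6 libraries and 13700 genes, such closeness is a description only. Between the ligands themselves the measure was 0.190, larger than the deviation of either.

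**Figure D4:**
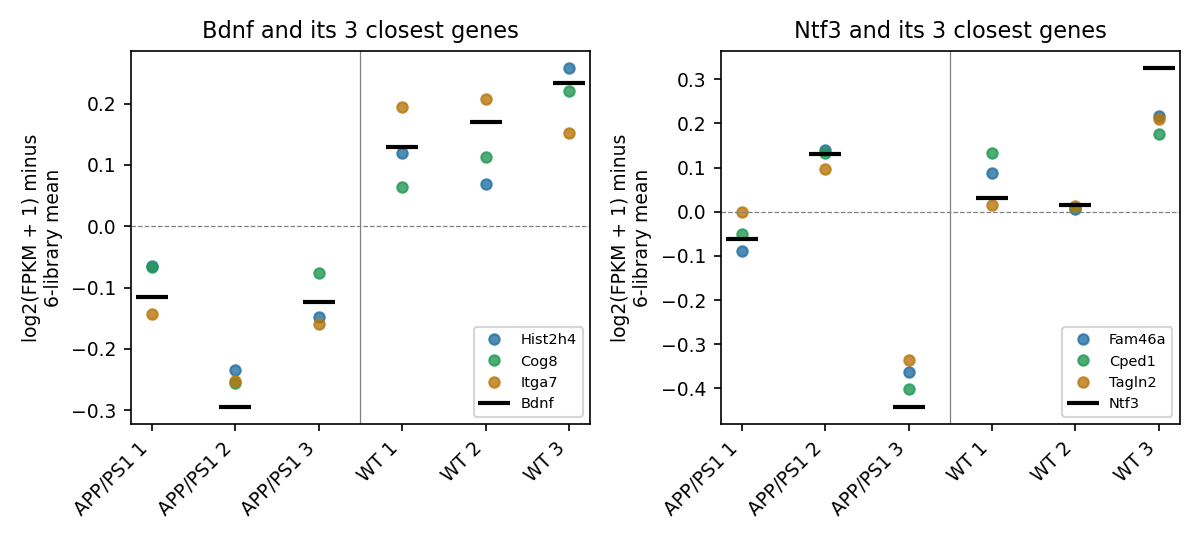
Centred log2(FPKM + 1) in the 6 libraries for Bdnf (left) and Ntf3 (right) as black bars, with the 3 tested genes closest to each as coloured points; the vertical line parts APP/PS1 from WT. Bdnf and its closest genes are below 0 in all APP/PS1 libraries, while Ntf3 is lowest in APP/PS1 replicate 3 and highest in WT replicate 3.

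Other genes of the pathway were read by role from the same fit. By limma at an adjusted p of 0.05, 0 of the 108 tested genes of these 6 lists were called in either direction, where 14 had an unadjusted p under 0.05, beside 6.69% of all genes tested. Among the other ligands and receptors, 0 of 7 had an unadjusted p under 0.05, and the list median of the log2 fold change was -0.07, against -0.00089 over all genes tested. Without APP/PS1 replicate 2 and WT replicate 3, 2 of the 7 had an unadjusted limma p under 0.05 on the lower side. So did 697 of all 13786 genes tested there. Sorl1, a sortilin relative that sorts the amyloid precursor protein, averaged 48.8 ± 1.52 FPKM in APP/PS1 and 53.7 ± 4.65 FPKM in WT, and the further relatives Sorcs1 and Sorcs3 had 3.01 ± 0.169 and 2.74 ± 0.412 FPKM, and 9.85 ± 0.497 and 8.37 ± 2.42 FPKM. For Sorl1 the log2 fold change was -0.13 over all libraries (limma, adjusted p = 0.806). Without APP/PS1 replicate 2 and WT replicate 3 it was -0.22 (limma, adjusted p = 0.466). Ntf5 (neurotrophin-4) had no row in the gene table.

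Of 12 tested genes for precursor processing and release, 1 had an unadjusted limma p under 0.05, on the lower side, beside 3.83% of all genes tested. Pcsk1, a prohormone convertase of dense-core vesicles, had 6.10, 6.68 and 6.17 FPKM in the libraries labelled APP/PS1, against 8.28, 7.90 and 6.81 FPKM in those labelled WT, and limma gave a log2 fold change of -0.24 with an adjusted p of 0.664. The labels did not overlap, WT replicate 3 being nearest to the APP/PS1 libraries. On the lower side this held for 1 of the 12, beside 6.51% of all genes tested. Plat, tissue plasminogen activator, which starts the extracellular cutting of the BDNF precursor, had 5.78 ± 0.369 FPKM in APP/PS1 and 6.55 ± 0.512 FPKM in WT. The list median was 0.01. Plg, Mmp3 and Mmp9 had no row in the table.

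The Trk adaptors and kinases had a list median of -0.01 over 40 tested genes. Of these, 24 were negative and 3 had an unadjusted limma p under 0.05, beside 50.4% and 6.69% of all genes tested. Pik3r1, the regulatory subunit of PI3 kinase, had 17.0, 16.7 and 17.4 FPKM in the APP/PS1 libraries, against 15.2, 15.3 and 15.4 FPKM in the WT libraries. Its log2 fold change was 0.14 (limma, adjusted p = 0.642). Rps6ka5, the kinase MSK1 that phosphorylates CREB, had 3.45, 3.19 and 3.16 FPKM, against 2.68, 2.67 and 2.73 FPKM, and limma gave a log2 fold change of 0.21 with an adjusted p of 0.642. Both stood higher in every APP/PS1 library than in any WT library, beside 5.38% of all genes tested, and 2.85% of all genes had an unadjusted p under 0.05 on the higher side. Sh2b3, an adaptor of the SH2B family, had 2.75 to 2.95 FPKM in APP/PS1 and 2.91 to 5.01 FPKM in WT, which overlap. Mapk7, the kinase ERK5, averaged 3.36 ± 0.132 and 3.84 ± 0.168 FPKM. The p75 adaptors and effectors had a median of -0.02 over 17 tested genes, with 0 at an unadjusted p under 0.05. Maged1, which binds the intracellular part of p75, had 70.5 ± 3.81 FPKM in APP/PS1 and 75.4 ± 5.92 FPKM in WT, and Bax, an effector of mitochondrial cell death, 6.91 ± 0.672 and 7.54 ± 0.603 FPKM.

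Among 19 regulators of Bdnf transcription, 13 were negative, beside 50.4% of all genes tested, with a median of -0.04. On the lower side 2 had an unadjusted limma p under 0.05, beside 3.83% of all genes tested. Npas4, an activity-induced transcription factor known to act on Bdnf promoters, had 5.79, 7.91 and 4.81 FPKM in the libraries labelled APP/PS1, against 12.5, 10.5 and 8.90 FPKM in those labelled WT, and limma gave a log2 fold change of -0.71 with an adjusted p of 0.566. Bhlhe40, a repressor of the basic helix-loop-helix family, had 19.0, 19.9 and 17.5 FPKM, against 24.4, 20.9 and 23.1 FPKM, and limma gave a log2 fold change of -0.27 with an adjusted p of 0.609. Neither overlapped between labels. Camk4, a calcium-dependent kinase of CREB, had 18.9 ± 1.17 and 16.5 ± 1.57 FPKM, and Usf2, an E-box factor, 17.9 ± 0.267 and 19.5 ± 0.987 FPKM. For Usf2 the labels did not overlap either. In all, 4 of the 19 did not overlap on the lower side, beside 6.51% of all genes tested. Unlike Bdnf, Npas4 in APP/PS1 replicate 2 and in WT replicate 3 lay nearest to the other label.

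The list of genes that BDNF or neuronal activity induces had the most negative median of the 6, at -0.39. All 13 of its tested genes were negative, beside 50.4% of all genes tested. Of these, 8 had an unadjusted limma p under 0.05, beside 3.83% of all genes tested on the lower side. The measures that separated by label beside Bdnf did so beside this list too. Dentate granule markers summed to 54.5 to 61.3 FPKM in APP/PS1 and 66.6 to 84.5 FPKM in WT, though singly only 3 of the 7 did not overlap. The mitochondrial share was 9.70% to 11.3% and 8.87% to 9.31%. Choroid plexus and oligodendrocyte markers separated narrowly, by their mean deviation, and singly all 7 of each were higher in APP/PS1. The part of any of these measures in the list's values was not tested. In 8 of 13 the labels did not overlap, beside 6.51% of all genes tested on the lower side. Dusp4, a MAP kinase phosphatase, had 6.09, 5.65 and 5.14 FPKM in the libraries labelled APP/PS1, against 8.75, 9.32 and 8.28 FPKM in those labelled WT, and limma gave a log2 fold change of -0.56 with an adjusted p of 0.158. Homer1, a postsynaptic scaffold with a short activity-induced form, had 15.4, 16.1 and 15.6 FPKM, against 21.2, 21.1 and 19.4 FPKM (-0.37, limma, adjusted p = 0.229). In neither did the labels overlap. Egr2, a zinc finger factor of the early response to activity, had 1.53, 3.26 and 1.54 FPKM in the APP/PS1 libraries, against 6.67, 5.56 and 5.42 FPKM in the WT libraries (-1.19, limma, adjusted p = 0.326). Its relative Egr1 had 42.2, 53.7 and 35.2 FPKM, against 87.9, 74.6 and 62.2 FPKM (-0.77, limma, adjusted p = 0.542). For both, APP/PS1 replicate 2 was the highest library of its label and WT replicate 3 the lowest. Several of these genes were already known from earlier results of these data to be lower, and the list is not independent evidence of a direction. Without APP/PS1 replicate 2 and WT replicate 3 the list median was -0.61, and Egr2 (limma, adjusted p = 0.0240) and Arc, a synaptic activity gene (0.0274), passed. Over all 13786 genes tested in those 4 libraries, 16 passed on the lower side and 12 on the higher. Arc is named after its values were seen. Bdnf had its smallest fold change there, -0.27.

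**Figure D5:**
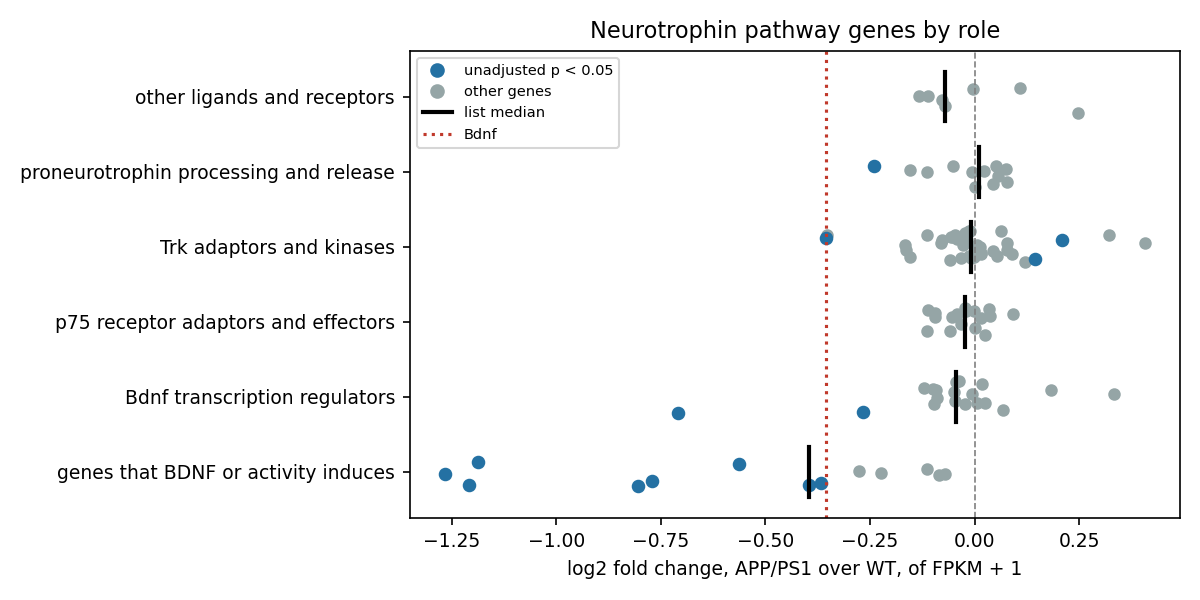
Each point is a tested gene, by role from top to bottom, at its log2 fold change of FPKM + 1, APP/PS1 over WT, with blue points for an unadjusted p under 0.05, black bars for list medians and a dotted line for Bdnf at -0.36. The bottom list has a median of -0.39 and the other 5 lie between -0.07 and 0.01.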

How the data were processed

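Hippocampal RNA was extracted with Trizol and sequenced from TruSeq libraries, per the labels' protocols. The authors deposited gene levels without naming a unit. They are read here as FPKM because of their decimals and totals and because the submitters' processing notes list StringTie, besides FastQC, HISAT2 and the build mm9. CircRNA reads were deposited by the authors as counts. The circRNA caller was not stated. Low FPKM showed no steps between libraries (the commonest ratio held at most 2.15% of genes), so no reads were recovered.

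Testing used limma 3.58.1 (trend and robust, R 4.3.3) on log2(FPKM + 1) for genes reaching 1 FPKM in 3 or more libraries, comparing the labels with no covariate. CircRNAs reaching 2 reads in 3 or more libraries were fitted with edgeR 4.0.16 (quasi-likelihood, TMM). Benjamini-Hochberg adjustment covered all features tested, with a threshold of 0.05. Both scripts were first tested on simulated data. No library repeated another (chi-square over its degrees of freedom, from circRNA counts, 2.03 to 2.39 for every pair).

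The members and lists were chosen with earlier results of these data known. Genes were named by smallest p, up to 4 per pathway list and 2 per marker list, of which some are not reported here, and by likeness of pattern, 3 for each of Bdnf and Ntf3. Prox1, Neurod6 and Tdo2 were named after their values were seen. Alternatives were other pseudocounts, filters, scalings and limma settings, DESeq2 1.42.0 for circRNAs, the replicate number as a block, each library left out, and the 4 libraries whose App and Prnp follow their labels. Sequences are from RefSeq (GRCm38.p6), whose promoter table held 4 of the 6 members.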

Additional observations from a re-analysis of the deposited data

How the results depend on the processing

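Over 15 alternatives each, Bdnf, Ntf3, Ntrk2, Ntrk3 and Sort1 kept a negative log2 fold change and an adjusted p above 0.05. Bdnf ranged from -0.42 with a pseudocount of 0.1 FPKM to -0.27 in 4 libraries (adjusted p from 0.348 to 0.772), and from -0.39 to -0.30 with single libraries left out. Ntf3 ranged from -0.38 to -0.09, Ntrk2 from -0.04 to -0.01, Ntrk3 from -0.08 to -0.00 and Sort1 from -0.10 to -0.04 on leaving out single libraries. The lowest value for Sort1 over the 15 alternatives was -0.11, in the 4 libraries. Ngfr entered only without a filter, at -0.11.

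Counts over all genes moved more. With 1 higher and 2 lower genes over all libraries, the 4 libraries without APP/PS1 replicate 2 and WT replicate 3 (at least 1 FPKM in at least 2) gave 12 higher and 16 lower, array weights gave 2 higher, and leaving out single libraries gave 1 to 8 higher and 1 to 22 lower, most without APP/PS1 replicate 2 and fewest lower without WT replicate 2. Of the pathway lists, 0 genes passed over all libraries, 2 in the 4 libraries and 0 to 1 on leaving out single libraries: Vgf without APP/PS1 replicate 1 and Egr2 without APP/PS1 replicate 2. Of the 13 induced genes, 11 were negative without APP/PS1 replicate 1 or WT replicate 1, and 12 without WT replicate 2. The circRNA count of 1 went to 0 in the 4 libraries and ran from 0 to 1 with single libraries left out, and the circRNA inside Ntrk3 ran from 0.31 in the 4 libraries to 1.73 without WT replicate 2 (adjusted p from 0.783 to 0.995). Of the marker genes, Gjb6 reversed to 0.0093 without APP/PS1 replicate 3, against -0.12 over all libraries, and with other single libraries left out it was lowest, -0.23, without APP/PS1 replicate 2. The causes were not tested.

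With the replicate number as a block, 1 gene was higher and 0 lower, against 1 and 2 without it, and Bdnf had an adjusted p of 0.688. Same-numbered libraries did not deviate together, with correlations across genes of 0.00983, -0.0561 and -0.0941, so the numbers are not taken as pairs. The depth behind the FPKM is unknown, so the precision of low members such as Ngfr and Ntf3 rests on the spread between libraries alone.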
